A study of Arabidopsis thaliana with 30 samples.

Results

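The genes described here are transcription factors of the WRKY, NAC and MYB families measured in rosette leaves of Arabidopsis thaliana on ATH1 arrays. A member was a probe set assigned to exactly 1 gene whose symbol begins with WRKY, NAC, ANAC or MYB, after an optional AT and leaving out WRKY6, with the probe set of highest mean kept for each gene. This gave 7 genes of 13356 with a probe set of their own: 5 WRKYs, 1 NAC and 1 MYB. They were WRKY53 (AT4G23810, probe set 254231_at), WRKY22 (AT4G01250, 255568_at), WRKY47 (AT4G01720, 255596_at), WRKY42 (AT4G04450, 255337_at), WRKY20 (AT4G26640, 253983_at), NAC014 (AT1G33060, 261616_at) and MYBC1 (AT2G40970, 267077_at). RefSeq lists 275 genes of Arabidopsis with such symbols, 67 of them WRKYs, so the 7 are a small sample of these families. The probe annotation used here named no gene for 8730 of the 22746 probe sets tested.

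The study set the catalase mutant cat2-1 (cat2) against wild-type Col-0 in 5 conditions, with 3 arrays for each of the 10 groups. All plants spent their first 5 weeks in soil under 3000 ppm CO2, with short days of 8 h of light and 16 h of dark, and part of them were sampled from there (hCO2). The others were moved to air of 400 ppm CO2 for 2 or 4 days, in the same short days (SD2 and SD4) or in long days of 16 h of light and 8 h of dark (LD2 and LD4). Leaves were taken 7 h into the light period, and 2 leaves taken from different plants were pooled for each array. The p-values measure the spread between such pools. The cat2 plants carried the mutation throughout growth. No long-day group stayed at 3000 ppm, so long-day leaves differed from hCO2 leaves in both air and day length. One label of the Col-0 hCO2 samples gives 300 ppm where the growth protocol gives 3000 ppm, and the protocol was followed. Of the probe sets, 0 were named CAT2, so the genotype labels were not checked on the mutated gene.

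WRKY proteins are plant transcription factors that bind the W-box and act in immunity, leaf senescence and nutrient responses. NAC proteins, named after NAM, ATAF and CUC, and MYB proteins form other large plant families, with roles in stress, senescence, development and secondary metabolism. CAT2 is the main leaf catalase and removes the hydrogen peroxide that photorespiration makes in peroxisomes. High CO2 suppresses photorespiration, and moving cat2 plants to air exposes them to peroxide from inside the cell.

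Values below are log2 signals, differences are on the log2 scale with the standard error (SE) of the fit, and a gene was called when its limma p, adjusted by Benjamini-Hochberg over all 22746 probe sets of a comparison, was under 0.05. Of 7 green-leaf markers 1 had a probe set, RCA (Rubisco activase), and its group means lay between 13.94 and 14.15. Of 8 markers of other tissues and cell types 1 had a probe set, FAMA (guard cells). FAMA fell by 0.51, 0.47 and 0.43 in cat2 at SD2, SD4 and LD2, and by 0.46 in Col-0 at SD2, each against hCO2. Its difference in cat2 at LD4 was -0.44 (adjusted p = 0.0505, not called). RCA fell by 0.16 in Col-0 at SD2. The 25S ribosomal RNA control averaged 7.27 to 7.97 in the cat2 groups in air, against 6.38 to 6.70 in the Col-0 groups in air, and 6.64 in cat2 and 6.72 in Col-0 at hCO2. The part of these differences in the results below was not tested. In such leaf pools, fewer cells of a type and less RNA per cell cannot be told apart.

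WRKY47 was higher in long days in cat2 on both days and in Col-0 at day 4, WRKY42 was lower in long days in cat2 at day 4, and MYBC1 rose at LD4 in both genotypes. Against hCO2, WRKY22 rose in cat2 at SD2 and SD4 and WRKY42 at SD4. In Col-0 at SD2, WRKY42 rose and WRKY20 and NAC014 fell. A genotype by air interaction was called for 0 of the 7 genes at SD2 and at SD4, beside 6.01% and 0.892% of all probe sets. WRKY53 was lower in cat2 when the 5 conditions were averaged, a comparison added after the data were seen. Some of these calls were lost in fits that left out 1 array. The Col-0 calls at SD2 were lost in 6 of 6 such fits for WRKY42 and in 2 of 6 each for WRKY20 and NAC014. The day 4 calls of WRKY47 were lost in 5 of 6 in cat2 and 4 of 6 in Col-0. MYBC1 in cat2 at LD4 was lost in 1 of 6 against SD4 and 2 of 6 against hCO2.

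Between the genotypes few of the 7 genes differed beyond the test's threshold. At hCO2, 0 of 7 were called, where 0.0132% of all probe sets were. At SD2, WRKY47 was lower in cat2 than in Col-0 and 6 were not called, beside 14.2% of all probe sets called. None was called at SD4, LD2 or LD4, beside 1.69%, 1.15% and 0.725% of all. Without adjustment, p was under 0.05 for 1 member in each of those comparisons with no call. It was so for 1531, 1913, 2799 and 2851 of all 22746 probe sets at hCO2, SD4, LD2 and LD4. The median difference of the 7 genes, cat2 minus Col-0, was -0.16 at hCO2, 0.09 at SD2, -0.04 at SD4, -0.05 at LD2 and -0.13 at LD4, where the median over all probe sets lay between -0.04 and 0.02.

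The air responses in cat2 gave 1 call of 7 at SD2, 2 at SD4, 1 at LD2 and 2 at LD4, all higher than hCO2, beside 17.7%, 12.4%, 20.2% and 14.7% of all probe sets in either direction. In Col-0 they gave 3 calls at SD2, 1 higher and 2 lower, 0 at SD4, 0 at LD2 and 1 at LD4, beside 20.0%, 2.55%, 11.5% and 16.3% of all. In each comparison with 0 calls p was under 0.05 without adjustment for 1 member. It was so for 3317 of all 22746 probe sets in Col-0 at SD4 and 6175 at LD2. The arrays of air and hCO2 did not overlap for 2, 2, 1 and 3 members in cat2 at SD2, SD4, LD2 and LD4, as for 30.8%, 25.3%, 34.8% and 27.1% of all probe sets. In Col-0 they did not overlap for 4, 4, 3 and 2 members, as for 36.1%, 20.4%, 33.0% and 25.6% of all. With only 7 genes, the member counts were not tested against these shares. The cat2 and Col-0 comparisons each share their own hCO2 arrays over all 4 air groups.

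For day length, long over short days gave 2 calls of 7 in cat2 at day 2 (1 higher, 1 lower) and 3 at day 4 (2 higher, 1 lower), beside 16.1% and 11.8% of all probe sets. In Col-0 there were 0 calls at day 2, where 3 genes had an unadjusted p under 0.05, and 2 at day 4, both higher, beside 11.8% and 13.5%. The unadjusted p at day 2 in Col-0 was under 0.05 for 5585 of all 22746 probe sets. Long-day and short-day arrays did not overlap for 3 members in cat2 at day 2 and 4 at day 4, as for 36.2% and 26.9% of all probe sets, and for 3 and 2 members in Col-0, as for 31.4% and 24.6% of all. Averaged over both genotypes and both days, a comparison added after the data were seen, 5 of 7 were called, beside 29.0% of all. WRKY47 was higher in long days by 1.02 ± 0.16 (adjusted p = 2.65e-05), MYBC1 by 0.29 ± 0.05 (adjusted p = 7.14e-05) and NAC014 by 0.26 ± 0.08 (adjusted p = 0.0125). WRKY42 was lower, with a difference of -0.45 ± 0.08 (adjusted p = 0.000108), as was WRKY22, with -0.20 ± 0.06 (adjusted p = 0.00742). WRKY53 gave 0.02 ± 0.24 (95% interval -0.47 to 0.52, adjusted p = 0.959) and WRKY20 gave 0.12 ± 0.07 (adjusted p = 0.229). NAC014 was called at neither day in either genotype on its own. All 5 calls were kept without any 1 of the 24 arrays.

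**Figure D1:**
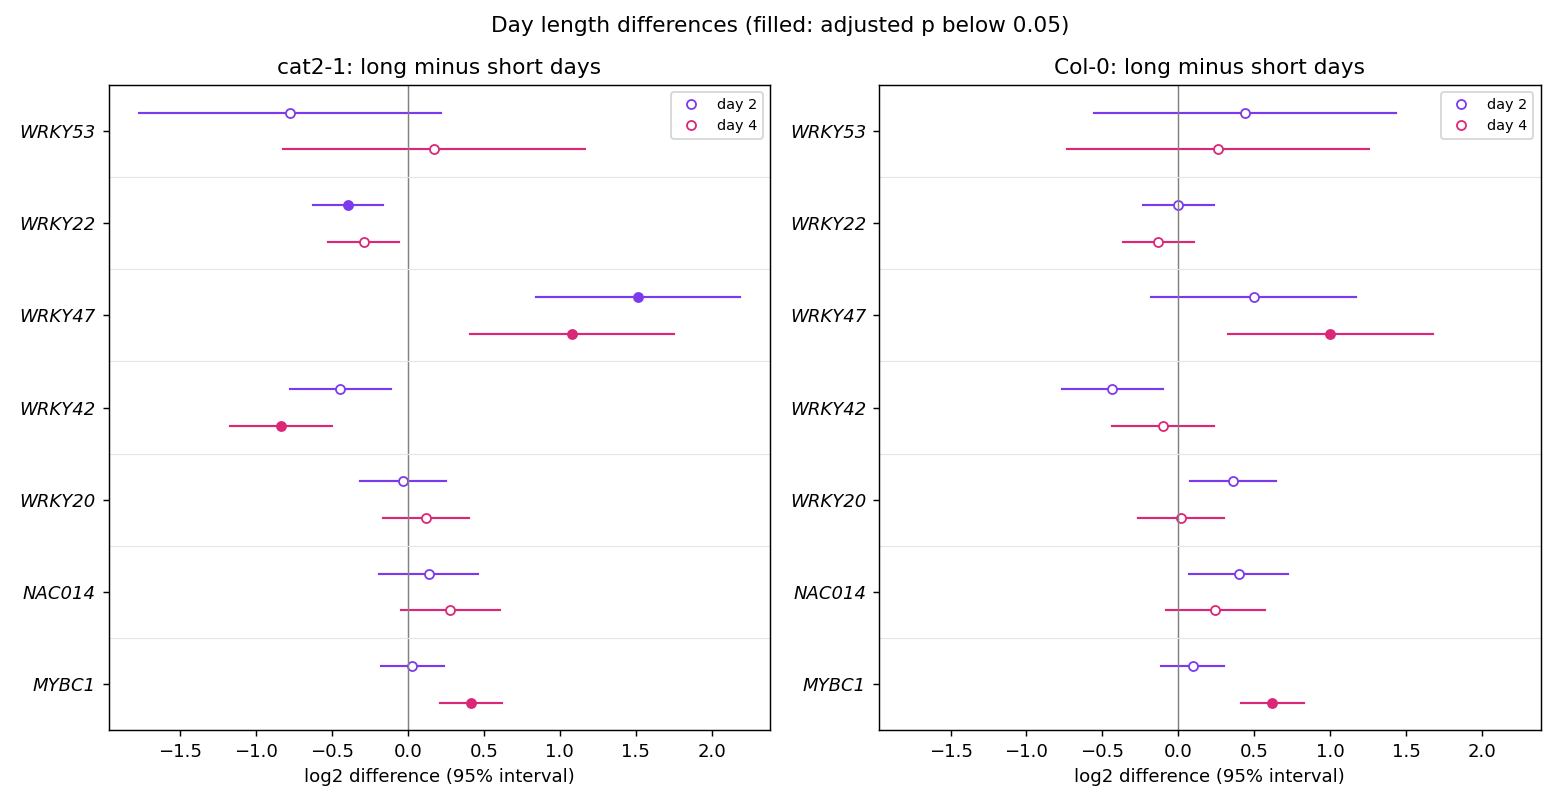
Log2 difference, long minus short days, at day 2 and day 4 with 95% intervals, in cat2-1 (left) and Col-0 (right), filled where the adjusted p was below 0.05. WRKY47 lies right of 0 at all 4 comparisons and MYBC1 is filled at day 4 in both genotypes.

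A genotype by air or genotype by day length interaction was called for 0 of the 7 genes in each of 4 tests, beside 6.01% of all probe sets for air at SD2, 0.892% for air at SD4, 7.72% for day length at day 2 and 0.862% for day length at day 4. Without adjustment p was under 0.05 for 3, 1, 2 and 1 genes in these tests, beside 4641, 1469, 4917 and 2052 of all 22746 probe sets. Between day 4 and day 2 in cat2, 0 of 7 were called in short days and 0 in long days, beside 0.950% and 1.70% of all. The unadjusted p was under 0.05 for 2 and 1 members, beside 1900 and 3543 of all probe sets. The arrays of the days did not overlap for 1 member in short and 1 in long days, as for 15.3% and 21.2% of all.

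**Figure D2:**
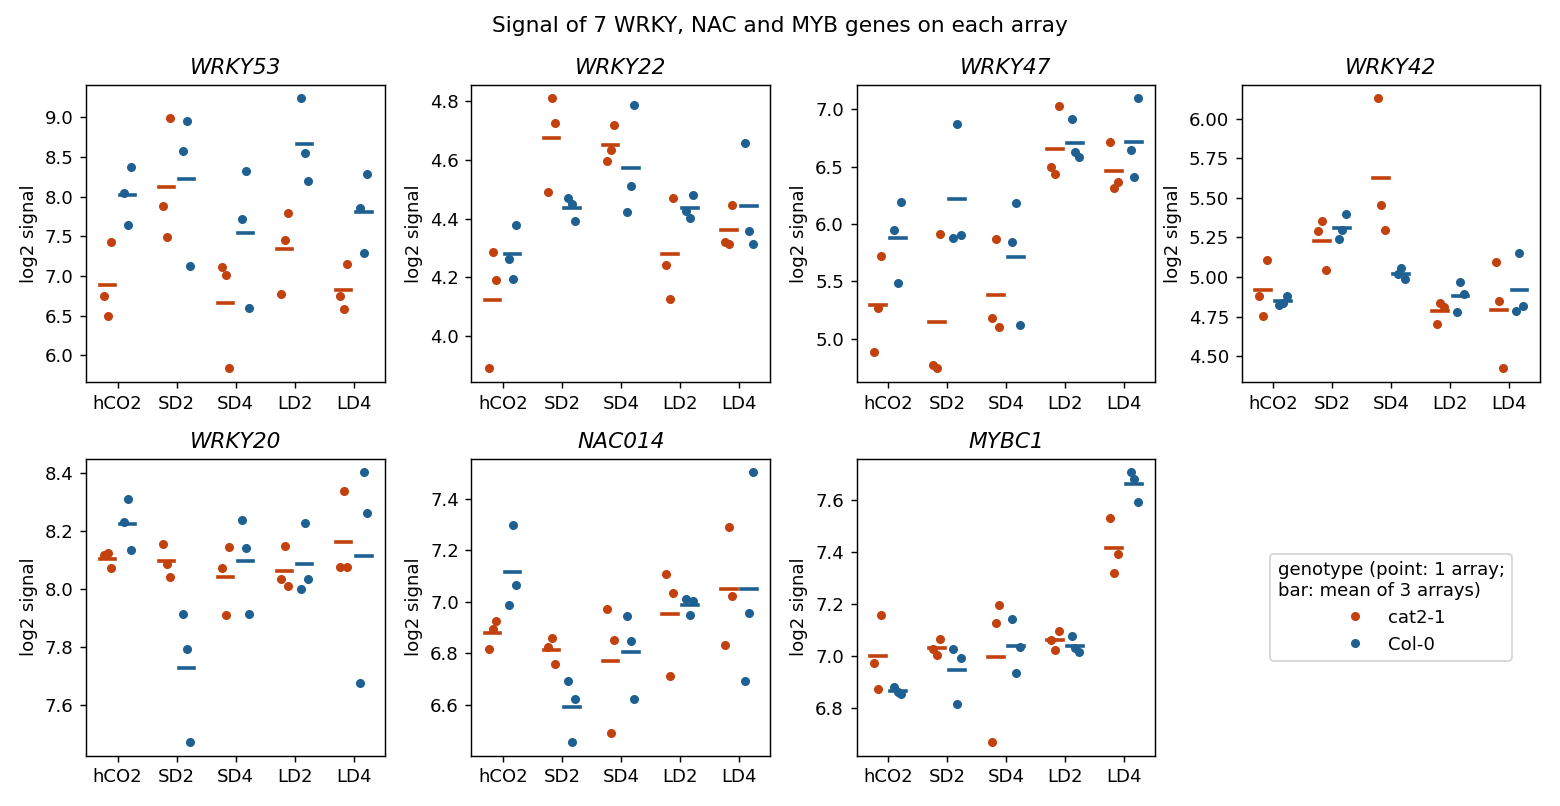
Log2 signal of the 7 genes on each array (points) with group means (bars), by condition, cat2-1 in orange left of Col-0 in blue. WRKY53 shows the widest spread within groups, WRKY47 is higher in long days, and MYBC1 is highest at LD4.

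WRKY53 is a regulator of leaf senescence whose transcript is known to respond to hydrogen peroxide. Its signals at hCO2 were 6.75, 6.50 and 7.43 in cat2, against 8.04, 7.64 and 8.38 in Col-0. At LD2 they were 6.78, 7.46 and 7.79 in cat2, against 9.24, 8.55 and 8.19 in Col-0. At LD4 they were 6.75, 6.58 and 7.16 in cat2, against 7.86, 7.29 and 8.29 in Col-0. In these 3 conditions every cat2 pool lay below every Col-0 pool, as the arrays of 9.72%, 20.0% and 12.4% of all probe sets were likewise apart, in either direction. At SD4 the cat2 pools gave 7.12, 7.01 and 5.83 and the Col-0 pools 7.71, 8.33 and 6.60. At SD2 the cat2 pools gave 7.88, 7.49 and 9.00 and the Col-0 pools 8.58, 8.95 and 7.13. The genotypes overlapped at SD4 and SD2, with 1 pool of each group far from the other 2.

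None of these 5 differences of WRKY53 was called. They were -1.13 ± 0.48 at hCO2 (adjusted p = 0.68, 95% interval -2.12 to -0.13), -0.10 ± 0.48 at SD2 (adjusted p = 0.925), -0.89 ± 0.48 at SD4 (adjusted p = 0.693), -1.32 ± 0.48 at LD2 (adjusted p = 0.223) and -0.98 ± 0.48 at LD4 (adjusted p = 0.403). The difference at LD2 corresponds to a signal in cat2 of 0.40 times that in Col-0. Same-numbered arrays of the genotypes deviated together at SD4 and LD4. With the replicate number as a block in a fit of only those 6 arrays, an alternative added after the data were seen, WRKY53 passed the threshold at SD4 (adjusted p = 0.0171) and LD4 (adjusted p = 0.0212). With the block in the fit of all arrays it did not (adjusted p = 0.475 at SD4 and 0.259 at LD4). With array weights, whose estimate did not converge, WRKY53 passed at hCO2 (-1.32 ± 0.31, adjusted p = 0.00213) and SD4 (-1.49 ± 0.43, adjusted p = 0.041).

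Averaged over the 5 conditions, a comparison also added after the data were seen, WRKY53 was lower in cat2, with a mean of 7.17 in cat2 and 8.05 in Col-0. This difference was -0.88 ± 0.22 (95% interval -1.33 to -0.44, adjusted p = 0.0091), and the call was kept without any 1 of the 30 arrays (adjusted p at most 0.02). In that comparison 2 of the 7 genes were called, both lower in cat2, beside 9.95% of all probe sets. The other was WRKY47, with means of 5.79 in cat2 and 6.25 in Col-0 and a difference of -0.46 ± 0.15 (adjusted p = 0.0457), a call that was lost in 20 of 30 fits that left out 1 array (adjusted p up to 0.0898). SAG101, a partner of the immune regulators EDS1 and PAD4 and the only 1 of 20 listed defence genes with a probe set, was called in none of the 5 genotype comparisons. Its averaged difference was -0.40 ± 0.12 (adjusted p = 0.0381).

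In air, WRKY53 was high on the SD2 arrays of cat2. Its cat2 mean was 6.89 ± 0.48 at hCO2, 8.12 ± 0.78 at SD2 and 6.66 ± 0.71 at SD4 (SD, n = 3). The SD2 pools lay above all hCO2 pools of cat2 and above all SD4 pools of cat2, but neither the difference of 1.23 from hCO2 (adjusted p = 0.0818) nor the day 4 minus day 2 difference of -1.47 (adjusted p = 0.222) was called. In Col-0 the WRKY53 means were 8.02 ± 0.37 at hCO2, 8.22 ± 0.96 at SD2, 7.55 ± 0.88 at SD4, 8.66 ± 0.53 at LD2 and 7.81 ± 0.50 at LD4 (SD, n = 3), with arrays overlapping between each air group and hCO2.

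**Figure D3:**
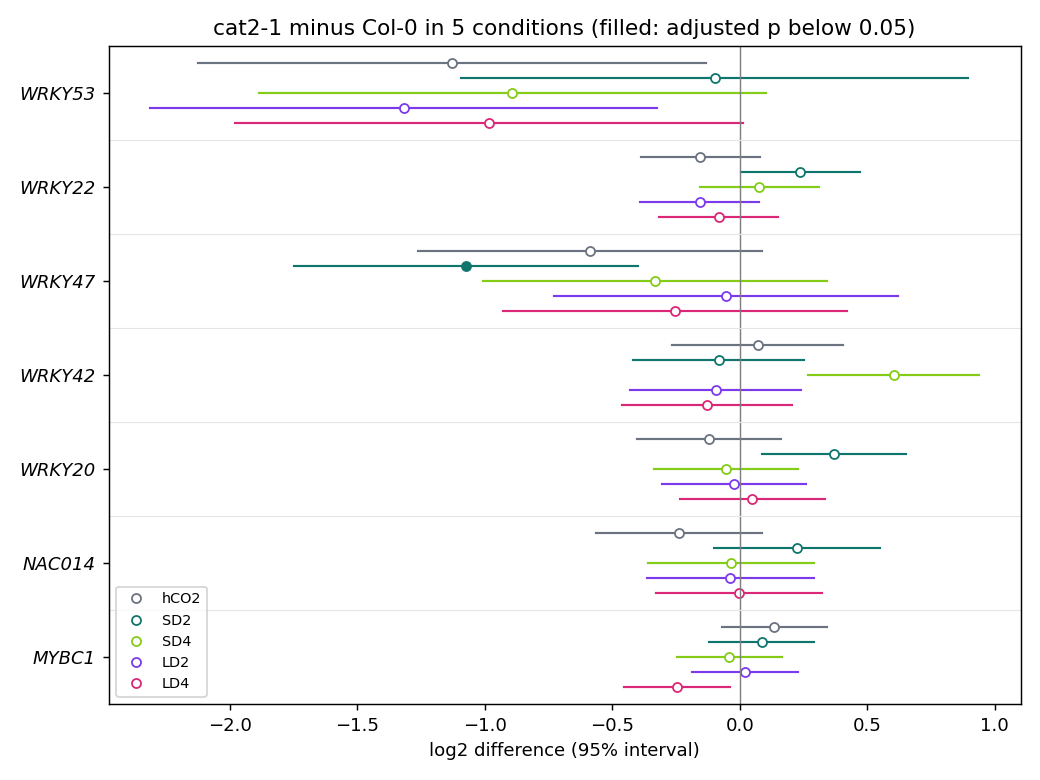
Log2 difference, cat2-1 minus Col-0, of each gene in the 5 conditions, with 95% intervals. WRKY47 at SD2 is the only filled point (adjusted p below 0.05), and WRKY53 lies left of 0 in all 5 conditions.

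WRKY22 acts downstream of a MAP kinase cascade in the response to bacterial flagellin. It rose in cat2 in short-day air, with signals of 4.49, 4.81 and 4.72 at SD2 and 4.60, 4.63 and 4.72 at SD4, against 3.89, 4.29 and 4.19 at hCO2. The differences from hCO2 were 0.55 ± 0.11 at SD2 (adjusted p = 0.00118) and 0.53 ± 0.11 at SD4 (adjusted p = 0.00297). Every pool in short-day air was above every pool at hCO2, and both calls were kept when any 1 of the 6 arrays was left out. In long-day air the cat2 pools gave 4.24, 4.13 and 4.47 at LD2 and 4.32, 4.31 and 4.45 at LD4. The LD4 pools were also all above the hCO2 pools, with a difference of 0.24 ± 0.11 that was not called (adjusted p = 0.178). WRKY22 was lower in long than in short days at day 2 in cat2, by -0.40 ± 0.11 (adjusted p = 0.0173), a call lost in 4 of 6 fits without 1 array and in a fit of those 6 arrays alone (adjusted p = 0.058).

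Col-0 leaves gave WRKY22 signals of 4.26, 4.19 and 4.38 at hCO2, 4.47, 4.45 and 4.39 at SD2, 4.42, 4.51 and 4.79 at SD4, 4.43, 4.40 and 4.48 at LD2, and 4.66, 4.36 and 4.31 at LD4. WRKY22 was called in no Col-0 comparison. The Col-0 pools at SD2, SD4 and LD2 nevertheless lay above all Col-0 pools at hCO2, with differences of 0.16, 0.30 and 0.16. The arrays of 36.1%, 20.4% and 33.0% of all probe sets were apart in those comparisons, in either direction. The cat2 response minus the Col-0 response to air at SD2 was 0.39 ± 0.16 (adjusted p = 0.157) and was not called, but with array weights it was 0.63 ± 0.12 and passed (adjusted p = 0.000473). At SD2 the 3 cat2 pools lay above the 3 Col-0 pools, with a difference of 0.24 ± 0.11 (adjusted p = 0.172), as the arrays of 35.4% of all probe sets were apart in that comparison. WRKY22 gave low signals on these arrays, with a mean of 4.43, and was the only member under the mean log2 of 5 that a filter on dim probe sets required. Its cat2 call at SD4 was lost in a fit of those 6 arrays alone (adjusted p = 0.0557).

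WRKY47 belongs to the same subgroup of WRKY proteins as WRKY42 and WRKY6. Its signals at SD2 were 4.77, 4.74 and 5.92 in cat2, against 5.87, 6.87 and 5.90 in Col-0. It was lower in cat2 than in Col-0 by 1.07 ± 0.33 on the log2 scale (adjusted p = 0.0297). The means were 5.14 ± 0.67 in cat2 and 6.21 ± 0.57 in Col-0 (SD, n = 3). The arrays overlapped, since replicate 3 of cat2 was above 2 of the Col-0 pools. The call was lost without cat2 replicate 1 (adjusted p = 0.15), cat2 replicate 2 (adjusted p = 0.137) or Col-0 replicate 2 (adjusted p = 0.196), and in a fit of those 6 arrays alone (adjusted p = 0.0883). At hCO2 WRKY47 gave 4.88, 5.27 and 5.72 in cat2 and 5.95, 5.49 and 6.19 in Col-0, with a difference of -0.59 ± 0.33 (adjusted p = 0.788).

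WRKY47 was higher in long days in cat2 at days 2 and 4 and in Col-0 at day 4. In cat2 its signals were 6.50, 6.44 and 7.03 at LD2, and the short-day pools of the same day are given above. The LD4 pools of cat2 gave 6.71, 6.32 and 6.36, against 5.18, 5.87 and 5.10 at SD4. Every long-day pool of cat2 was above every short-day pool of cat2. The differences were 1.52 ± 0.33 at day 2 (adjusted p = 0.00201) and 1.08 ± 0.33 at day 4 (adjusted p = 0.0301), the first equal to a 2.86-fold higher signal. In Col-0 the pools gave 6.91, 6.63 and 6.59 at LD2, and 6.64, 6.41 and 7.10 at LD4 against 5.84, 6.19 and 5.12 at SD4. The Col-0 difference was 1.00 ± 0.33 at day 4 (adjusted p = 0.0417) and 0.50 ± 0.33 at day 2 (adjusted p = 0.385). The day 2 call in cat2 was kept without any 1 array, while the day 4 calls were lost in 5 of 6 such fits in cat2 (adjusted p up to 0.128) and 4 of 6 in Col-0 (adjusted p up to 0.249).

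WRKY47 was also above hCO2 in long-day air. The cat2 differences were 1.37 ± 0.33 at LD2 (adjusted p = 0.00454) and 1.18 ± 0.33 at LD4 (adjusted p = 0.0158), and those of Col-0 were 0.83 ± 0.33 (adjusted p = 0.0964) and 0.84 ± 0.33 (adjusted p = 0.0827). The call at LD4 in cat2 was lost without cat2 LD4 replicate 1 (adjusted p = 0.0866), cat2 hCO2 replicate 1 (adjusted p = 0.101) or cat2 hCO2 replicate 2 (adjusted p = 0.0523). In short-day air the differences of WRKY47 from hCO2 were -0.15 at SD2 and 0.09 at SD4 in cat2, and 0.34 and -0.16 in Col-0, none of them called. Its cat2 minus Col-0 difference in the day-length response at day 2 was 1.02 ± 0.46 (adjusted p = 0.195). For the air response at SD2 that difference was -0.49 ± 0.46 (adjusted p = 0.608). Neither was called.

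WRKY42 is known for its part in phosphate homeostasis. Its mean of 5.03 was just over the 5 of the dim filter. The group means of WRKY42 at hCO2 and in long days lay under 5, between 4.78 and 4.92. It rose in cat2 at SD4, with signals of 6.13, 5.45 and 5.30, against 4.88, 4.76 and 5.11 at hCO2. This difference was 0.71 ± 0.16 (adjusted p = 0.00513), and the call was kept without any 1 array but lost in a fit of those 6 arrays alone (adjusted p = 0.119). The other cat2 pools gave 5.29, 5.35 and 5.05 at SD2, 4.70, 4.84 and 4.81 at LD2 and 5.10, 4.85 and 4.42 at LD4. WRKY42 was lower in long than in short days in cat2 at day 4, by -0.83 ± 0.16 (adjusted p = 0.000832), equal to 0.56 times the short-day signal. All long-day pools lay below all short-day pools at day 4, and the call was kept in all 6 fits without 1 array and lost with those 6 arrays alone (adjusted p = 0.0799).

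In Col-0, WRKY42 rose at SD2, with signals of 5.24, 5.29 and 5.40, against 4.82, 4.84 and 4.88 at hCO2. The difference was 0.47 ± 0.16 (adjusted p = 0.0446), with no overlap between arrays, but the call was lost without any 1 of the 6 arrays (adjusted p = 0.0662 to 0.124). At SD4 the Col-0 pools gave 5.02, 5.06 and 4.99, and the long-day pools gave 4.78, 4.97 and 4.89 at LD2 and 4.79, 5.15 and 4.82 at LD4. The cat2 pools at SD4 were all above the Col-0 pools at SD4, where the arrays of 14.2% of all probe sets were apart. That difference was 0.60 ± 0.16 and not called (adjusted p = 0.0585). It passed with the replicate number as a block (adjusted p = 0.0467), with the dim filter (adjusted p = 0.0455), with array weights (adjusted p = 0.0407) and without cat2 replicate 3 (adjusted p = 0.0162). It did not pass in fits of those 6 arrays alone, with the block (adjusted p = 0.0948) or without it (adjusted p = 0.356). The day-length response at day 4 differed between the genotypes by -0.73 ± 0.23 (adjusted p = 0.193), which was not called.

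WRKY20 carries a pair of WRKY domains, the mark of another subgroup. It fell in Col-0 at SD2, with signals of 7.91, 7.79 and 7.47, against 8.23, 8.31 and 8.13 at hCO2. The difference was -0.50 ± 0.14 (adjusted p = 0.0122), and it was lost without Col-0 SD2 replicate 3 (adjusted p = 0.0835) or Col-0 hCO2 replicate 2 (adjusted p = 0.0503). The cat2 pools gave 8.16, 8.09 and 8.04 at SD2 and 8.12, 8.13 and 8.07 at hCO2, which is a difference of -0.01 ± 0.14. Across the other 3 conditions its group means lay between 8.04 and 8.16, with 1 low Col-0 pool at LD4 (replicate 1, 7.68).

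NAC014 encodes a NAC protein with a predicted membrane-spanning segment. It also fell in Col-0 at SD2, with signals of 6.69, 6.45 and 6.62, against 6.99, 7.30 and 7.07 at hCO2. The difference was -0.53 ± 0.16 (adjusted p = 0.02), and it was lost without replicate 2 of Col-0 SD2 (adjusted p = 0.0947) or of Col-0 hCO2 (adjusted p = 0.0961). In cat2 the pools gave 6.82, 6.86 and 6.76 at SD2 and 6.82, 6.89 and 6.92 at hCO2, a difference of -0.07 ± 0.16. The cat2 minus Col-0 difference in the air response at SD2 was 0.46 ± 0.22 for NAC014 (adjusted p = 0.242) and 0.49 ± 0.19 for WRKY20 (adjusted p = 0.145), neither of them called, where 6.01% of all probe sets were.

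**Figure D4:**
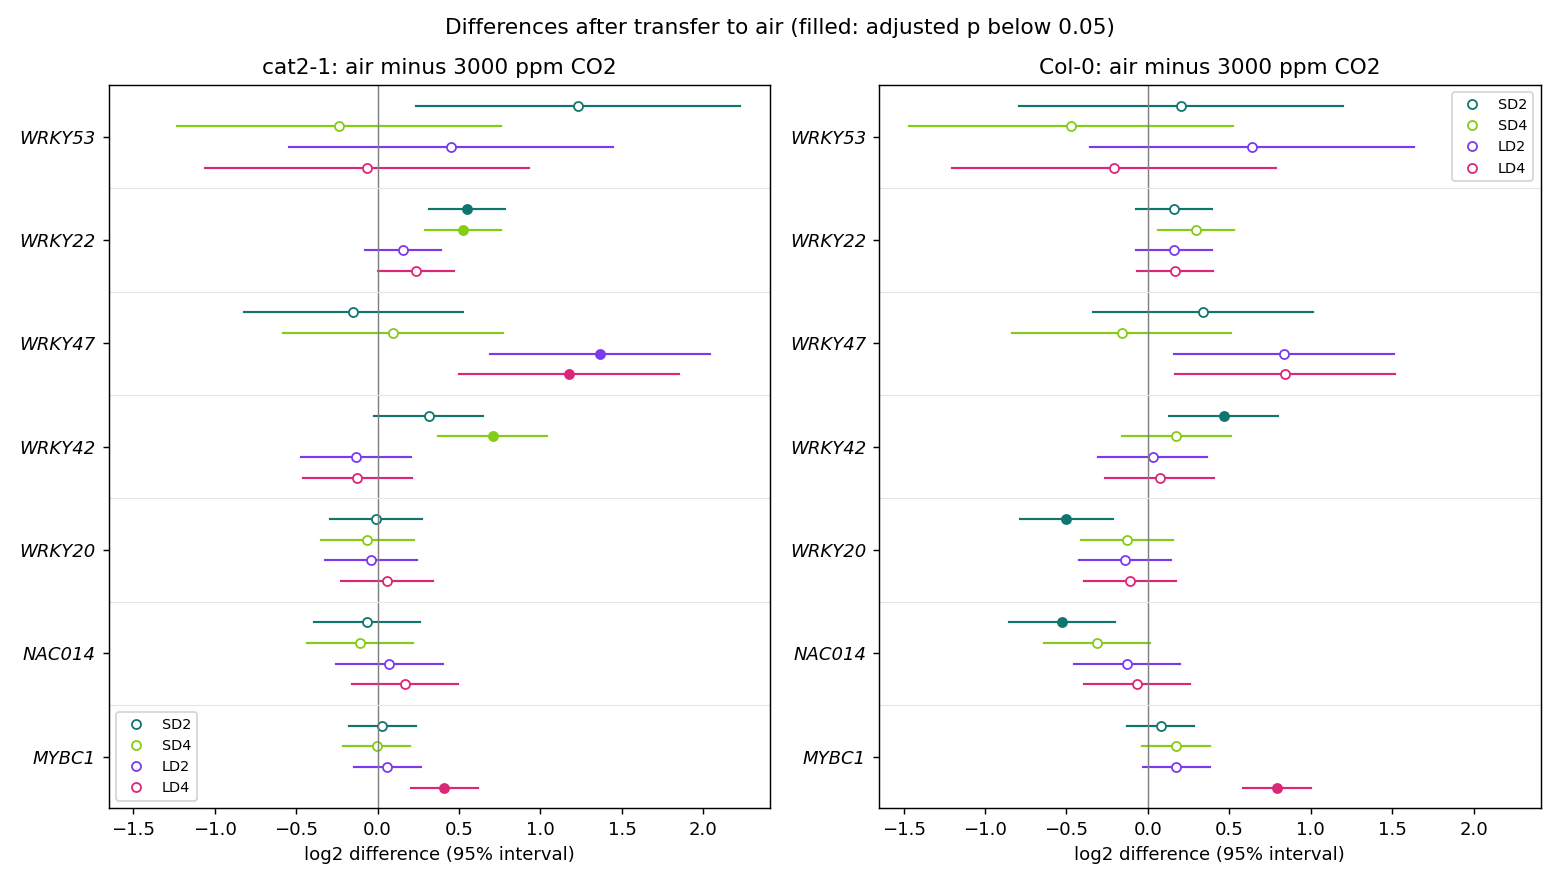
Log2 difference of each air group from hCO2 with 95% intervals, in cat2-1 (left) and Col-0 (right), filled where the adjusted p was below 0.05. In cat2-1, WRKY22 is filled at SD2 and SD4, WRKY42 at SD4, WRKY47 at LD2 and LD4 and MYBC1 at LD4. In Col-0, WRKY20, NAC014 and WRKY42 are filled at SD2 and MYBC1 at LD4.

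MYBC1 is a MYB-like protein whose loss is known to raise freezing tolerance. It rose at LD4 in both genotypes. The cat2 pools at LD4 gave 7.53, 7.32 and 7.39, against 6.67, 7.13 and 7.19 at SD4 and 6.98, 6.87 and 7.16 at hCO2. The Col-0 pools at LD4 gave 7.70, 7.68 and 7.59, against 7.14, 6.94 and 7.04 at SD4 and 6.88, 6.86 and 6.86 at hCO2. In each genotype all LD4 pools were above all SD4 and all hCO2 pools. The long minus short day difference at day 4 was 0.42 ± 0.10 in cat2 (adjusted p = 0.00611) and 0.62 ± 0.10 in Col-0 (adjusted p = 0.00013).

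Against hCO2 the LD4 difference of MYBC1 was 0.41 ± 0.10 in cat2 (adjusted p = 0.00653) and 0.79 ± 0.10 in Col-0 (adjusted p = 8.29e-06). The last is a 1.73-fold higher signal. Both Col-0 calls were kept without any 1 array. The cat2 call against SD4 was lost without cat2 SD4 replicate 1 (adjusted p = 0.062), that against hCO2 without cat2 LD4 replicate 1 (adjusted p = 0.0522) or cat2 hCO2 replicate 2 (adjusted p = 0.05), and both in fits of the 6 arrays alone (adjusted p = 0.143 and 0.0724). At LD2 the signals were 7.06, 7.02 and 7.10 in cat2 and 7.08, 7.03 and 7.01 in Col-0, and at SD2 they were 7.03, 7.00 and 7.06 in cat2 and 7.03, 6.82 and 6.99 in Col-0. In these 2 conditions of day 2 neither day length nor genotype gave a call. At LD4 the cat2 pools lay below the Col-0 pools, with a difference of -0.25 ± 0.10 that was not called (adjusted p = 0.304), and the cat2 day 4 minus day 2 difference in long days was 0.35 ± 0.10 (adjusted p = 0.0716).

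The 7 genes differed in how much of their variance lay between the groups. For MYBC1 it was 84.5%, for WRKY47 73.5%, for WRKY42 70.0%, for WRKY22 68.0%, for WRKY53 59.9%, for NAC014 46.1% and for WRKY20 44.0%, with a median of 51.9% over all probe sets. WRKY53 and WRKY47 varied most among the pools of a group. The within-group SD was 0.64 for WRKY53, at percentile 99.4 of all probe sets, and 0.43 for WRKY47, at percentile 97.6, against a median of 0.14.

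WRKY53 and WRKY47 moved together between pools of the same group. Over the deviations of the 30 arrays from their group means, Pearson's r was 0.78 (p = 0.00013 by 100000 permutations within groups, adjusted p = 0.00273 over 21 pairs of members) and Spearman's rho was 0.76 (permutation p = 0.00019, adjusted p = 0.00399). Without the 2 arrays farthest from the median of WRKY47, r was 0.73, and r was positive within 9 of 10 groups. No other pair passed after adjustment, the nearest being WRKY20 with WRKY22 (r = -0.52, adjusted permutation p = 0.106). The first component of all within-group deviations held 31.1% of their variance, and correlated with the deviations of WRKY47 at r = 0.68 and of WRKY53 at r = 0.67, where the median absolute r over all probe sets was 0.32. The part of this shared variation in the correlation of the 2 genes was not tested.

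**Figure D5:**
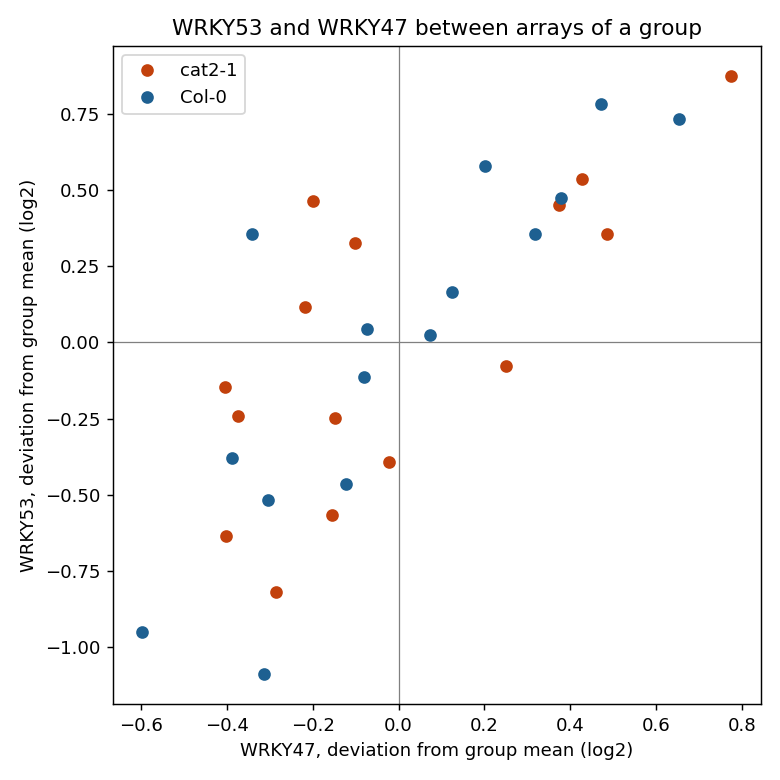
Deviation of WRKY53 from its group mean against that of WRKY47 on each of the 30 arrays, both in log2, with cat2-1 in orange and Col-0 in blue. Arrays with high WRKY47 for their group have high WRKY53, with r = 0.78.

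Few genes that these families are known to act with had a probe set named here. Of 8 genes of the mitochondrial dysfunction response, a target of membrane-tethered NACs, 4 were measured. In cat2 over Col-0, 2 of the 4 rose at SD2 and the same 2 at SD4, beside 14.2% and 1.69% of all probe sets called in either direction, and 0 rose at hCO2, LD2 and LD4. HSP23.5, a mitochondrial small heat shock protein, rose by 5.99 ± 0.18 at SD2 (adjusted p = 4.7e-17) and by 4.67 ± 0.18 at SD4 (adjusted p = 1.45e-14). UPOX rose by 1.31 ± 0.23 at SD2 (adjusted p = 0.000383) and by 1.00 ± 0.23 at SD4 (adjusted p = 0.016). The other 2, NDB2 and AT12CYS-2, were not called between the genotypes. NDB2 averaged 9.23 in cat2 and 8.71 in Col-0 at SD2, and 8.65 and 8.50 at SD4. AT12CYS-2 averaged 5.91 in cat2 and 6.02 in Col-0 at SD2, and 5.90 and 5.82 at SD4. NAC014, the 1 NAC measured, was not called in cat2 over Col-0 in any condition.

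Of 17 glucosinolate synthesis genes, targets of MYBs that were not measured here, 3 had a probe set and 0 were called between the genotypes in any of the 5 conditions. Averaged over the 5 conditions 2 of the 3 were lower in cat2, beside 9.95% of all probe sets. They were BCAT4 (-0.41 ± 0.10, adjusted p = 0.0108) and UGT74B1 (-0.22 ± 0.06, adjusted p = 0.0219). In Col-0, 2 of the 3 were lower than hCO2 at SD2 and at SD4, beside 20.0% and 2.55% of all. They were UGT74B1 (-0.51 ± 0.14 at SD2, adjusted p = 0.00984) and UGT74C1 (-0.35 ± 0.12 at SD2, adjusted p = 0.0413). In Col-0 at LD4 and in cat2 at LD2, 1 of the 3 was lower than hCO2, beside 16.3% and 20.2% of all. In the other air groups 0 were called. A genotype by air interaction was called for 0 of the 3 at SD2 and SD4, beside 6.01% and 0.892% of all. Of 19 flavonoid and anthocyanin genes, 8 had a probe set and 0 were called between the genotypes in any of the 5 conditions, with 1 of 8 lower in cat2 when these were averaged. At day 4, 1 of 8 was lower in long than in short days in cat2 and 5 of 8 in Col-0, beside 11.8% and 13.5% of all probe sets. In Col-0 3 of 8 were higher at SD4, the short-day side of that contrast, than at hCO2, beside 2.55% of all. In cat2 0 were, beside 12.4%. The genotype by air interaction at SD4 and the genotype by day length interaction at day 4 were each called for 0 of 8. The shares of all probe sets called there were 0.892% and 0.862%. Within the Col-0 SD4 group the SD of these genes ranged from 0.02 for UGT84A1 to 1.28 for DFR. Of 9 senescence genes and 7 secondary wall genes, 0 had a named probe set.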

How the data were processed

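The authors deposited log2 signals per probe set. The submitters' processing notes name RMA and affy, and versions are not given in the sources used here. The number of arrays limits the precision. The 64 control probe sets were left out and 22746 tested. A mean per group was fitted over all 30 arrays with limma 3.58.1 (lmFit and eBayes, R 4.3.3), with Benjamini-Hochberg adjustment in each of 23 comparisons. Probe sets were named from the platform annotation, in which 13513 held exactly 1 gene. By Entrez gene identifier, 7 of 7 members matched RefSeq. Tables were handled with pandas 2.3.3. All called members, the members on fixed role lists, and array values where groups did not overlap were named by rule. Of 9 role lists of these families, only the list of defence WRKYs held members, 2 of 29 (WRKY22 and WRKY53).

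The members and lists were chosen with earlier results of these data known. The 2 averaged comparisons and the fit with a replicate block on only the arrays compared were added after the data were seen. The replicate numbers come from the labels, which do not say what they pair. Same-numbered arrays deviated together in all 3 pairs only for the genotypes at SD4 (r = 0.62, 0.31 and 0.63) and LD4 (r = 0.44, 0.45 and 0.22). Alternatives were the replicate block, only the arrays compared, a filter at a mean log2 of 5, quantile normalization, median centring, array weights and leaving out each array. Another, every probe set of the members, repeated the main fit, since each member had only 1 probe set.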

Additional observations from a re-analysis of the deposited data

Results flagged for a closer look

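For NAC014 and WRKY20, the cat2 arrays lay on opposite sides of the Col-0 arrays in 2 conditions, with no overlap in either. Taken 1 condition at a time and in either direction, 9.72% of all probe sets had no overlap at hCO2 and 35.4% at SD2. The share of all probe sets apart in both conditions with opposite signs is not given here. The cat2 minus Col-0 difference of NAC014 was -0.24 at hCO2 and 0.22 at SD2, and that of WRKY20 was -0.12 at hCO2 and 0.37 at SD2. None of these 4 differences was called (adjusted p = 0.828 and 0.389 for NAC014, 0.916 and 0.0737 for WRKY20). The difference between the conditions was tested as the genotype by air interaction at SD2 and was called for neither gene (adjusted p = 0.242 for NAC014 and 0.145 for WRKY20). With array weights the WRKY20 interaction passed (0.40 ± 0.13, adjusted p = 0.0248).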

How the results depend on the processing

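Over 2747 alternative values of single members, 0 changed direction past the threshold, and 398 of 460 values of called members kept the call. These totals include a setting with every probe set of the members, which repeated the main fit because each member had only 1. That setting adds 1 value for each of the 175 results, 25 of them called, and these values could not change. Array weights, whose estimate did not converge, moved most counts of called members: to 3 for cat2 over Col-0 at hCO2 (main 0), 2 at SD4 (0), 3, 2 and 4 for cat2 at SD2, LD2 and LD4 over hCO2 (1, 1 and 2), 2 and 1 for Col-0 long over short days at days 2 and 4 (0 and 2), 1 for cat2 day 4 over day 2 in short and in long days (0 each), 2 and 1 for the air interaction at SD2 and SD4, and 1 for the day-length interaction at day 2 (0 each). With only the arrays compared the counts were 0 for cat2 over Col-0 at SD2 (1), 1 for Col-0 LD2 (0), 0 for cat2 SD4 (2) and 1 for cat2 LD4 over hCO2 (2), 2 and 1 for Col-0 long over short days at days 2 and 4, and 1 for cat2 at day 4 (3). The dim filter, which drops WRKY22, gave 1 for cat2 over Col-0 at SD4 (0), 0 for cat2 SD2 (1) and 1 for cat2 SD4 over hCO2 (2). The replicate block gave 2 for cat2 over Col-0 at SD2 (1), adding WRKY20 (adjusted p = 0.0272), and 1 at SD4 (0), and it moved no other count by over 1.5 times. The block with only the arrays compared gave 1 at hCO2 (WRKY53, adjusted p = 0.00903), 0 at SD2, 1 at SD4 and 1 at LD4. Same-numbered arrays of the genotypes did not deviate together in all 3 pairs at hCO2 (r = -0.09, 0.66 and 0.66) or LD2 (r = -0.02, 0.39 and -0.21). At SD2 r was below 0 in each pair (-0.08, -0.10 and -0.33). What the numbers pair in these conditions is not known from the labels. Quantile normalization and median centring, which shifted the median of all by at most 0.02 and 0.09, moved no count by over 1.5 times. The cause of these changes was not tested, apart from WRKY22 being dropped. Without 1 array, counts ranged from 0 to 1 for cat2 over Col-0 at SD2 and SD4 and the day-length interaction at day 2, 0 to 2 for Col-0 SD2 (main 3) and cat2 LD4 over hCO2, 1 to 2 for cat2 SD2 over hCO2, Col-0 at day 4, cat2 at day 2 and the averaged genotype comparison, 1 to 3 for cat2 at day 4 and 5 to 6 for averaged day length. They stayed at 0, 1 or 2, as in the main fit of each, for all others.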

Other observations

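In the annotation used, 2 genes of these families stood under another symbol and were therefore no members. ZAP1, also called WRKY1, was lower in Col-0 at SD2 than at hCO2 by -0.56 (adjusted p = 0.0137) and higher in long than in short days at day 2 in Col-0 by 0.57 (adjusted p = 0.0173). AT5G47390, a MYB-like gene, was higher in long than in short days at day 4 by 0.33 in cat2 and 0.41 in Col-0, both called. Neither was called between the genotypes in any of the 5 conditions.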
